A study of Homo sapiens with 9 samples.

Results

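Among 60664 genes counted in MDA-MB-231 cells, 148 had their lowest level in control cells at elevated viscosity and a higher level both in control cells at baseline viscosity and in *TRPV4*-depleted cells at elevated viscosity. The study exposed this human line of triple-negative breast cancer to media of 0.77 cP or 8 cP, the latter thickened with methylcellulose, and RNA was taken on day 6. There were 3 groups of 3 samples. Baseline controls carried a scramble hairpin (SC) and grew at 0.77 cP. Viscous controls carried the same hairpin and grew at 8 cP. Knockdown cells carried a hairpin against *TRPV4* (shTRPV4) and also grew at 8 cP. All cells, controls included, carried a stably integrated lentiviral hairpin and were kept under puromycin. Knockdown cells at 0.77 cP are not analysed here, so effects of the hairpin that need elevated viscosity cannot be told apart from those that do not. Neither the labels nor the methods say whether the replicates were separate cultures, so p-values measure the spread between these samples only.

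The genes were chosen by their own levels. Levels were taken as CPM, the count scaled to a common library total. A gene was kept if its mean was at least 1 CPM in baseline controls and in knockdown cells, if both means were at least 1.2 times the mean of viscous controls, and if all replicates of viscous controls lay below all replicates of the other groups. Of the 12853 genes with a sufficient level, 148 (1.15%) met the rule. At any fold, 3.45% of these 12853 genes had viscous controls below both other groups in every replicate, and 2.83% had them above. The same rule turned upside down, with viscous controls highest, kept 27 genes. The differences of viscous controls from both other groups are therefore descriptions here. The rule did not compare knockdown cells with baseline controls directly, and that comparison was tested. It used the same samples, though, and by keeping both groups above viscous controls it limited how far apart they could lie.

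As background, TRPV4 is a calcium-permeable cation channel of the cell surface that opens upon cell swelling and membrane stretch. Calcium entry, mitogen signalling and mechanical load switch on immediate early genes, whose mRNAs appear quickly and are short-lived, among them *NR4A1*. NF-κB factors drive *IL6* and *TNFAIP3*, the latter of which encodes a deubiquitinase that shuts NF-κB signalling down again. The coactivators YAP and TAZ bind TEAD factors on DNA and drive genes such as *CCN1* and *ANKRD1*. Several of the 148 genes belong to these programmes, whereas others encode secreted and surface proteins of epithelial cells or long non-coding RNAs that stay in the nucleus. The gene lists compared here held 26 of the 148, and the rest were in none of them.

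Promoter sequences are shown for 3 of the genes that carry the letters bound by these factors. They were chosen with their levels known, to show different behaviours after *TRPV4* depletion. *IL6* and *TNFAIP3* stayed below the level of baseline controls. *ANKRD1* rose above it, a call lost under 3 of 15 alternative settings. Each covers 250 bases before to 50 after the RefSeq transcription start (GRCh38.p14), read 5′ to 3′ on the strand of the gene. In *IL6* (chr7:22726950-22727249, plus strand) and *TNFAIP3* (chr6:137867009-137867308, plus strand), capitals mark matches to a core of the NF-κB motif (GGG, any 2 bases, then TTTCC) on either strand. In *ANKRD1* (chr10:90921038-90921337, minus strand), capitals mark matches to CATTCC, the TEAD core, on either strand.
IL6: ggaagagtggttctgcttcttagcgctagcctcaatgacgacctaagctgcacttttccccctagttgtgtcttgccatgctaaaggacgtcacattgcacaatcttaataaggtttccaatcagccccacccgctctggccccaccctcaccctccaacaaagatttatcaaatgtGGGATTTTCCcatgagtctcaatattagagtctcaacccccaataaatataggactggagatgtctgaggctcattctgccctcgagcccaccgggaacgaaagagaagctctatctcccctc
TNFAIP3: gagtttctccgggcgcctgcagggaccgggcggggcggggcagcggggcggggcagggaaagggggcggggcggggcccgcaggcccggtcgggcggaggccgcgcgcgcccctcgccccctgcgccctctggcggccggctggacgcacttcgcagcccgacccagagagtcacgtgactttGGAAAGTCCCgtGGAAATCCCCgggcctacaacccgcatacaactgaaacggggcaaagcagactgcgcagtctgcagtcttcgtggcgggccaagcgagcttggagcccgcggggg
ANKRD1: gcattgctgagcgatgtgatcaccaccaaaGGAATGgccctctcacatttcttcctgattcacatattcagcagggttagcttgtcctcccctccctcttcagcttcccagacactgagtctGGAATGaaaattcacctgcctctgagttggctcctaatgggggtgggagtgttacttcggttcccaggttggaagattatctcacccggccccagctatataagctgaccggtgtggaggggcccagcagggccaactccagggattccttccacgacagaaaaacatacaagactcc
The match in *IL6* begins at position -73 from the start, those in *TNFAIP3* at -67 and -55, and those in *ANKRD1* at -220 and -128. The marked stretches do not overlap one another. The letters were not tied to 1 behaviour. The TEAD letters also stood in the promoter of *FILIP1L*, which was called lower in knockdown cells, a call lost under 10 of 15 settings. The NF-κB letters also stood in those of *COL7A1*, *SLC9A5* and *TPM2*, which were not called. A match describes these letters only, and binding was not measured.

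The long RNA *MIR23AHG* (chr19:13823880-13842928, minus strand) hosts the precursors of miR-23a, miR-27a and miR-24-2. Their mature sequences are shown because the host transcript was among the genes that differed the most between the tested groups. Capitals mark the seed, bases 2 to 8 from the 5′ end, by which a miRNA pairs with its targets (RefSeq, GRCh38.p14).
hsa-miR-24-3p: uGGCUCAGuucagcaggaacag
hsa-miR-24-2-5p: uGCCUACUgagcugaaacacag
hsa-miR-27a-3p: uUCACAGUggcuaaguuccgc
hsa-miR-27a-5p: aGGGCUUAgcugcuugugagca
hsa-miR-23a-3p: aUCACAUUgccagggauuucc
hsa-miR-23a-5p: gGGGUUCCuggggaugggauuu
The 6 seeds are all different. The poly(A) libraries measured the host transcript, and the miRNAs themselves were not measured.

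The samples held 64571681 to 103518036 counts. *TRPV4*, the target of the hairpin, had means of 0.459 ± 0.0548 CPM (SD, n = 3) in baseline controls, 0.456 ± 0.191 CPM (SD, n = 3) in viscous controls and 0.0783 ± 0.0656 CPM (SD, n = 3) in knockdown cells. Markers of the line were present, with *VIM* at 768 to 1056 CPM and *CD44* at 749 to 924 CPM, whereas *ESR1*, *PGR*, *CDH1* and *KRT5* stayed at or below 0.133 CPM. *ERBB2* was counted at 89.0 to 96.4 CPM and *EPCAM* at 17.2 to 19.2 CPM. Mitochondrially encoded genes took 3.28% to 3.40% of the counts in knockdown cells and 2.04% to 2.58% in SC cells.

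The dips were mostly modest. The smaller of the 2 ratios over viscous controls had a median of 1.27, reached 1.5 in 19 genes and exceeded 2 only for *U2AF1*. Baseline controls stood a median of 1.34 times above viscous controls, and knockdown cells a median of 1.36 times. The ratio reached 2 in 11 genes for baseline controls and in 8 genes for knockdown cells. Levels were low for most, with 89 of 148 genes under 5 CPM in viscous controls and 10 genes at 50 CPM or more. The smallest count of any of them in a sample of viscous controls was 30. Summed over the 148 genes, viscous controls held 3580 to 3905 CPM, baseline controls 4737 to 5493 CPM and knockdown cells 4593 to 5299 CPM. In edgeR's quasi-likelihood fit to 18264 genes, 116 of 148 genes passed an adjusted p of 0.05 between viscous and baseline controls, where 19.3% of all genes passed (9.69% lower and 9.57% higher at 8 cP). All 116 were lower, as chosen. Between viscous controls and knockdown cells, 103 of 148 passed, all lower, where 20.0% of all genes did (9.02% lower and 11.0% higher in the controls). Both contrasts chose the genes, so these counts describe the rule, and 13 genes passed in neither.

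**Figure D1:**
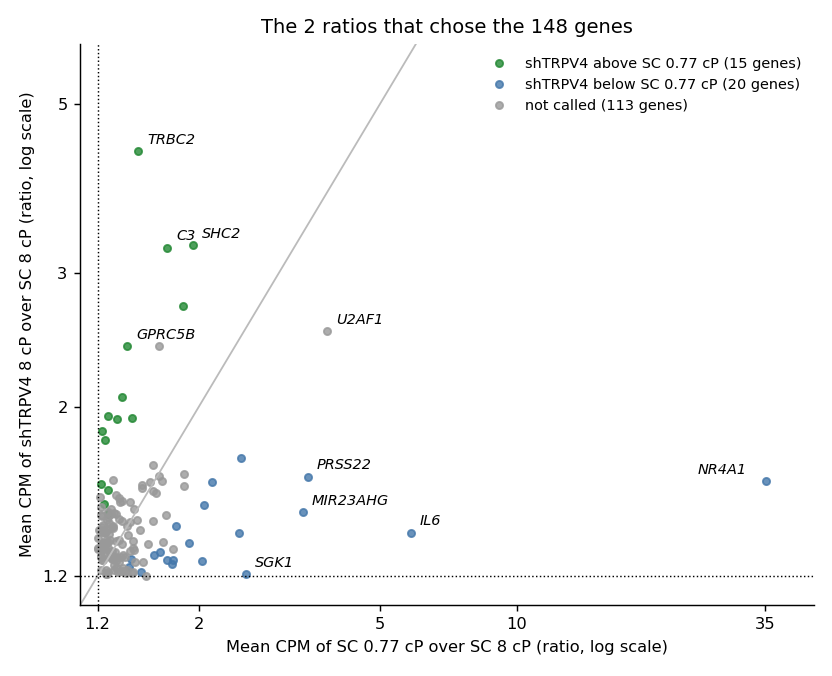
Mean CPM of baseline controls over viscous controls (x axis, log scale) against mean CPM of knockdown cells over viscous controls (y axis, log scale) for the 148 genes, with dotted lines at the 1.2-fold limit of the rule and a grey line where both ratios are equal. Most points lie near the corner, *NR4A1* lies far to the right at 35.2 times, and *TRBC2* is highest at 4.34 times. Colours give the call of edgeR between knockdown cells and baseline controls.

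To determine how closely *TRPV4*-depleted cells at 8 cP matched control cells at baseline viscosity, knockdown cells were tested against baseline controls. Of 148 genes, 35 (23.6%) differed, whereas 42.4% of all 18264 genes tested and 52.8% of the 12853 genes with a sufficient level did. The rule, by requiring both groups to lie above the viscous controls, bears on this share and on the sizes of the differences, since a gene far down in knockdown cells could not pass. The 148 genes also had lower levels, at a median of 4.56 CPM against 30.3 CPM for the genes with a sufficient level. Differences are harder to call at low counts, and the shares were not compared at matched levels. The mitochondrial share, higher in knockdown cells, moves with this comparison too, and its part in it was not tested. In knockdown cells, 20 genes remained below the level of baseline controls and 15 exceeded it, against 22.0% and 20.4% of all genes tested. The median log2 fold change was -0.02 over the 148 genes and -0.01 over all genes. The median absolute log2 fold change was 0.14 and 0.23, respectively. Of the 113 genes that did not pass, 61 had the higher mean in knockdown cells and 52 the lower. The 95% interval of the difference lay within 1.2-fold in either direction for 25 of the 113 and reached past it for 88, for which a difference of that size could be neither shown nor bounded.

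**Figure D2:**
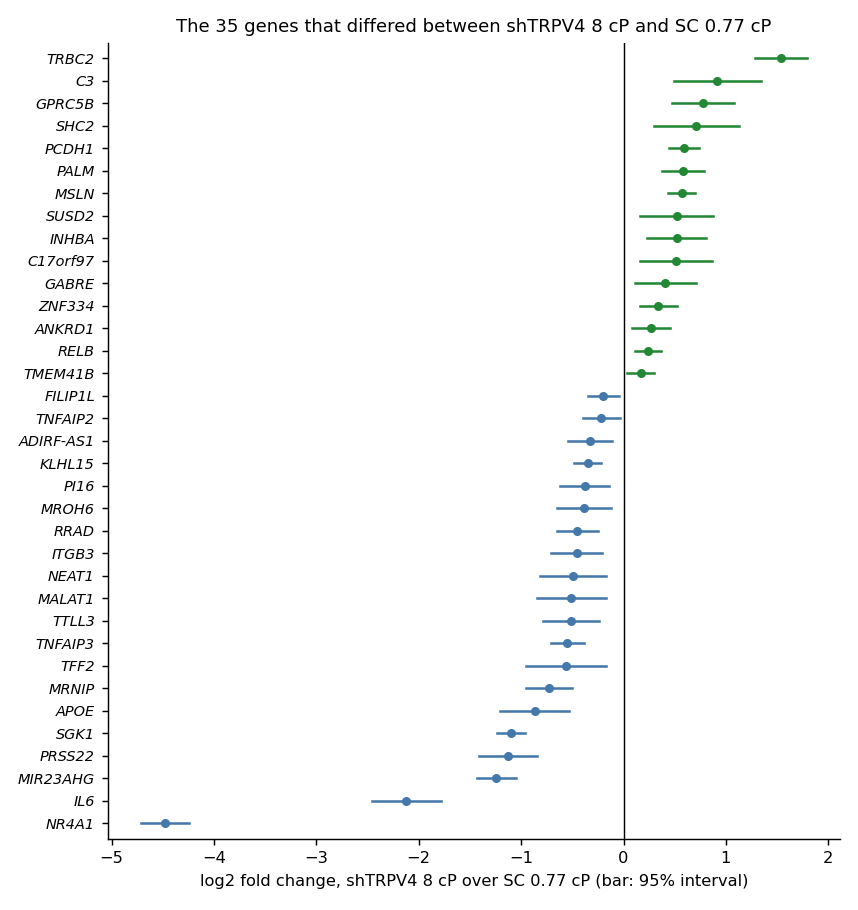
Log2 fold change of knockdown cells over baseline controls with its 95% interval for the 35 of 148 genes with an edgeR adjusted p below 0.05. The 15 genes in green were higher in knockdown cells, up to 1.54 for *TRBC2*, and the 20 in blue were lower, down to -4.48 for *NR4A1*.

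Of the 20 genes that stayed low in knockdown cells, *NR4A1* lay the furthest below baseline controls. *NR4A1*, an orphan nuclear receptor and immediate early gene, had 38.0, 35.5 and 31.2 CPM in baseline controls, 1.12, 0.903 and 0.952 CPM in viscous controls and 1.68, 1.32 and 1.75 CPM in knockdown cells. All replicates of knockdown cells lay below those of baseline controls, and their mean lay 1.75% of the distance from viscous to baseline controls. The log2 fold change of knockdown cells over baseline controls was -4.48 (SE 0.11, adjusted p = 4.94e-13 by edgeR). The antisense gene *NR4A1AS* overlaps 754 of its exon bases. *SGK1*, a kinase that regulates ion channels and transporters, had 56.3, 53.1 and 47.8 CPM in baseline controls, 19.8, 21.1 and 21.0 CPM in viscous controls and 23.6, 25.6 and 25.6 CPM in knockdown cells. Levels in knockdown cells sat just above those of viscous controls, covering 13.4% of the distance, with a log2 fold change over baseline controls of -1.10 (SE 0.06, adjusted p = 5.53e-09 by edgeR). *SGK1* and the other called genes outside the naming rule are named because the test called them, that is, after their values had been seen. *BTG2*, an antiproliferative gene induced early and by p53, had 2.84, 3.17 and 2.68 CPM in baseline controls, 2.22, 2.34 and 2.33 CPM in viscous controls and 3.01, 2.70 and 2.66 CPM in knockdown cells. Here the 3 groups lay close together and the log2 fold change over baseline controls was -0.08 (95% interval -0.31 to 0.16, edgeR adjusted p = 0.615).

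In a list of immediate early genes, 3 of the 33 with a sufficient level met the rule, against 1.15% of all genes with a sufficient level. Of the 39 genes of this list that were tested, 35 were lower and 1 was higher in viscous than in baseline controls. Their median log2 fold change was -0.88, against -0.01 over all genes. In knockdown cells against baseline controls, 35 were lower and 1 was higher (median -1.06). Between viscous controls and knockdown cells, 16 were higher in viscous controls and 3 were lower (median 0.20). These 3 comparisons share samples with each other. The genes of the list that met the rule were *NR4A1*, *CCN1* and *BTG2*.

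Among genes of NF-κB signalling, the 4 that met the rule went different ways. *IL6*, a cytokine of inflammation and tumour growth, had 29.5, 36.3 and 21.5 CPM in baseline controls, 4.90, 5.32 and 4.69 CPM in viscous controls and 5.49, 7.20 and 7.72 CPM in knockdown cells. The lowest knockdown replicate was 1.03 times the highest replicate of viscous controls, and 7.59% of the distance to baseline controls was covered, with a log2 fold change of -2.12 (SE 0.16, adjusted p = 8.93e-08 by edgeR). *TNFAIP3*, the feedback deubiquitinase, had 12.7, 13.4 and 12.2 CPM in baseline controls, 6.42, 6.96 and 6.69 CPM in viscous controls and 8.54, 8.67 and 9.41 CPM in knockdown cells. All replicates of knockdown cells lay below those of baseline controls, and the log2 fold change over baseline controls was -0.55 (SE 0.07, adjusted p = 3.07e-05 by edgeR). *TNFAIP2*, a TNF-induced gene linked to membrane protrusions, had 158, 182 and 137 CPM in baseline controls, 117, 121 and 102 CPM in viscous controls and 133, 146 and 139.6 CPM in knockdown cells. It passed narrowly, at -0.22 (SE 0.08, adjusted p = 0.0499 by edgeR), and was lost when any 1 of 7 samples was left out. *RELB*, the transcription factor subunit of the non-canonical NF-κB pathway, had 24.0, 26.3 and 23.8 CPM in baseline controls, 20.4, 20.7 and 18.7 CPM in viscous controls and 28.6, 30.0 and 30.5 CPM in knockdown cells. In contrast to the other 3 it was highest in knockdown cells, with a log2 fold change over baseline controls of 0.24 (SE 0.06, adjusted p = 0.00523 by edgeR). Of 17 tested NF-κB subunits and feedback genes, a list that does not hold *IL6*, 11 were lower in viscous than in baseline controls, and 6 were lower and 1 was higher in viscous controls than in knockdown cells. In knockdown cells against baseline controls, 7 were lower and 3 higher. All 17 had a sufficient level, and 3 of them met the rule, against 1.15% of all genes with a sufficient level. Of 32 tested cytokines, chemokines and IL-1 family genes, 13 were lower and 1 was higher in viscous than in baseline controls. In knockdown cells against baseline controls, 20 were lower and 6 higher. Of the 18 with a sufficient level, 1, *IL6*, met the rule, against 1.15% of all genes with a sufficient level.

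**Figure D3:**
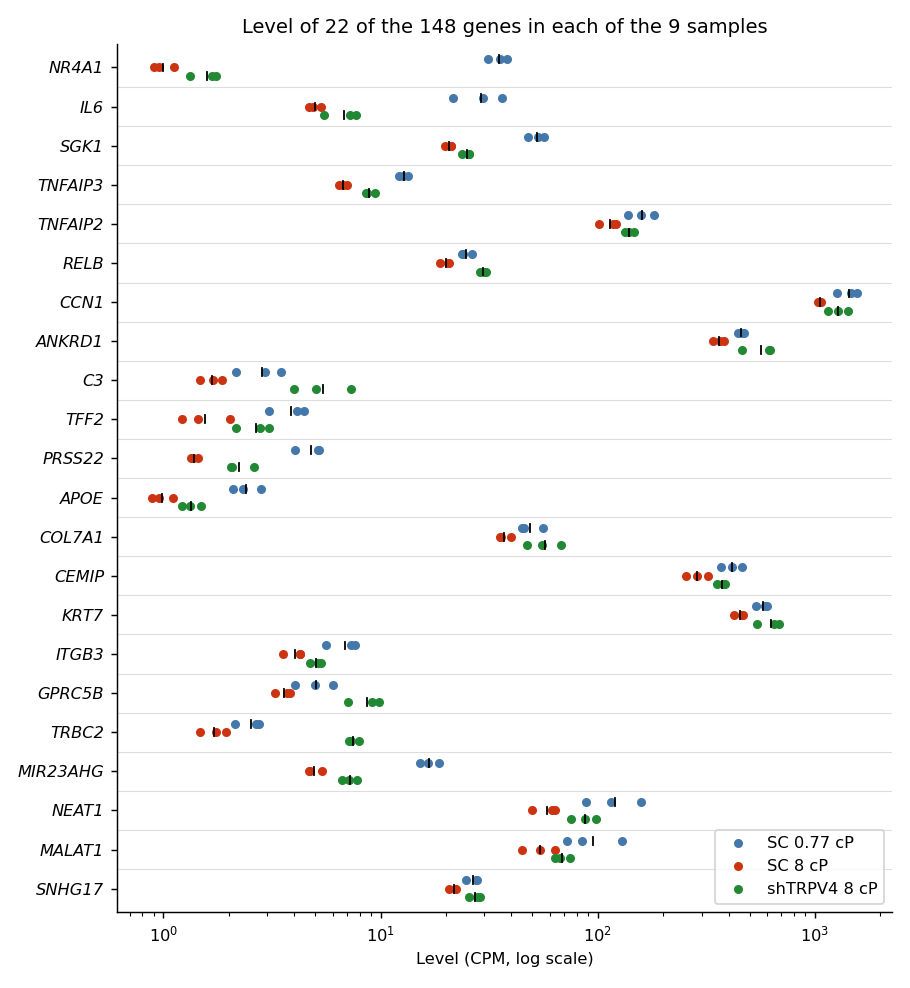
Level in CPM (log scale) of 22 of the 148 genes in each of the 9 samples, with points for replicates, a tick for the group mean and colours for the groups. In every gene the 3 red points of viscous controls lie left of all other points, as the rule requires. The green points of knockdown cells sit close to the red for *NR4A1*, *IL6* and *SGK1* and to the right of the blue for *TRBC2* and *RELB*.

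*CCN1*, a matricellular protein that binds integrins, had 1459.9, 1563 and 1268 CPM in baseline controls, 1069.9, 1038 and 1036 CPM in viscous controls and 1141, 1274 and 1421 CPM in knockdown cells. Replicates of knockdown cells overlapped those of baseline controls, and the log2 fold change over baseline controls was -0.19 (95% interval -0.36 to -0.02, edgeR adjusted p = 0.0648). *ANKRD1*, an ankyrin repeat protein of stretched muscle and a TEAD target, had 472, 461 and 439 CPM in baseline controls, 341, 365 and 379 CPM in viscous controls and 459, 611 and 619 CPM in knockdown cells. One knockdown replicate matched baseline controls and the other two exceeded every other sample, giving 0.27 (SE 0.09, adjusted p = 0.0205 by edgeR). That call was lost without replicate 3 of baseline controls and without replicate 2 or 3 of knockdown cells. Of 25 tested YAP/TAZ and TEAD targets, 6 were higher and 5 lower in viscous than in baseline controls, and 5 were higher and 5 lower in viscous controls than in knockdown cells. Knockdown cells had 9 of them higher and 9 lower than baseline controls. All 25 had a sufficient level, and 2 of them, *CCN1* and *ANKRD1*, met the rule, against 1.15% of all genes with a sufficient level. *PLK2*, a polo-like kinase induced by stress, had 480.2, 492 and 480.2 CPM in baseline controls, 379.6, 375 and 347 CPM in viscous controls and 413, 454 and 488 CPM in knockdown cells. Its log2 fold change over baseline controls was -0.13 (95% interval -0.25 to -0.0024, not adjusted for the number of genes), and it was not called.

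Of the 22 SRF, MRTF and actin targets with a sufficient level, 2 met the rule, against 1.15% of all genes with a sufficient level. They were *TPM2* (β-tropomyosin, which lines actin filaments) and *FHL1* (a LIM protein of stress fibres). Neither passed the test against baseline controls, with log2 fold changes of -0.14 (95% interval -0.41 to 0.14) and -0.06 (-0.24 to 0.12). *FILIP1L*, a filamin-interacting protein, did, at -0.20 (SE 0.07, adjusted p = 0.0351 by edgeR). It kept that call under 5 of the 15 alternative settings. Of 22 tested SRF, MRTF and actin targets, 4 were lower and 2 higher in viscous than in baseline controls, and 6 were lower and 1 higher in viscous controls than in knockdown cells. Against baseline controls, knockdown cells had 5 higher and 2 lower.

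*C3*, the central complement component, had 2.93, 3.48 and 2.15 CPM in baseline controls, 1.68, 1.87 and 1.48 CPM in viscous controls and 3.97, 5.05 and 7.26 CPM in knockdown cells. Each knockdown replicate exceeded every other sample, at 318% of the distance to baseline controls, with a log2 fold change of 0.92 (SE 0.20, adjusted p = 0.00165 by edgeR). *C3* shares 1357 exon bases with an unnamed gene on its own strand. Of 22 tested complement and coagulation genes, 5 were lower and 1 was higher in viscous than in baseline controls, and 7 were lower and 6 higher in viscous controls than in knockdown cells. In knockdown cells against baseline controls, 10 were lower and 7 higher. The rule was met by 1 of the 21 with a sufficient level, *C3*, against 1.15% of all such genes. *TFF2*, a trefoil peptide that protects mucosa, had 4.44, 4.12 and 3.05 CPM in baseline controls, 2.02, 1.44 and 1.21 CPM in viscous controls and 2.16, 3.08 and 2.79 CPM in knockdown cells. It stayed below baseline controls, at -0.56 (SE 0.18, adjusted p = 0.0220 by edgeR), and *PRSS22*, a tryptase-like serine protease, did so more clearly with 5.14, 4.04 and 5.19 CPM in baseline controls, 1.37, 1.44 and 1.33 CPM in viscous controls and 2.07, 2.04 and 2.61 CPM in knockdown cells. For *PRSS22*, knockdown cells did not overlap baseline controls, and its log2 fold change over baseline controls was -1.13 (SE 0.13, adjusted p = 7.66e-06 by edgeR). *SUSD2*, a sushi-domain surface protein, had 1.93, 1.47 and 1.76 CPM in baseline controls, 1.03, 0.770 and 0.995 CPM in viscous controls and 2.01, 2.69 and 2.88 CPM in knockdown cells, the log2 fold change being 0.52 (SE 0.17, adjusted p = 0.0202 by edgeR). Without replicate 2 of either outer group, or replicate 3 of knockdown cells, *SUSD2* was not called. The *TFF2* call was lost without replicate 1 of baseline controls or of knockdown cells, and without replicate 2 of baseline controls.

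Lipid carriers *APOE* and *APOC1* are neighbours on chromosome 19, 4854 bases apart, and *APOC1* is named for that after its values were seen. *APOE* had 2.82, 2.32 and 2.09 CPM in baseline controls, 0.957, 1.11 and 0.886 CPM in viscous controls and 1.32, 1.22 and 1.49 CPM in knockdown cells. It covered 25.2% of the distance in knockdown cells, at -0.87 (SE 0.16, adjusted p = 0.000397 by edgeR). *APOC1*, at 0.955 to 0.997 CPM in viscous controls and 1.00, 1.23 and 1.32 CPM in knockdown cells, did not pass at -0.27 (95% interval -0.61 to 0.08), and its lowest knockdown replicate was 1.00 times the highest replicate of viscous controls.

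*CEMIP*, which degrades hyaluronan, had 459, 415 and 367 CPM in baseline controls, 320.3, 287 and 254 CPM in viscous controls and 355, 377 and 385 CPM in knockdown cells. *LOXL4*, a lysyl oxidase that crosslinks collagen, had 217, 208 and 184 CPM in baseline controls, 164, 166 and 131 CPM in viscous controls and 174, 215 and 226 CPM in knockdown cells. In both, replicates of knockdown cells overlapped those of baseline controls, with log2 fold changes over these of -0.18 (95% interval -0.35 to -0.01) for *CEMIP* and -0.01 (-0.22 to 0.20) for *LOXL4*. These intervals are not adjusted for the number of genes, and neither gene was called. *COL7A1*, the anchoring fibril collagen, had 55.8, 44.8 and 45.7 CPM in baseline controls, 39.7, 35.9 and 35.6 CPM in viscous controls and 67.7, 55.5 and 47.4 CPM in knockdown cells, and *COL6A3*, a chain of microfibrillar collagen VI, had 32.4, 28.4 and 26.8 CPM in viscous controls and 38.9, 39.8 and 37.3 CPM in knockdown cells. Neither collagen passed against baseline controls, where *COL6A3* had 41.5, 34.7 and 32.9 CPM. *ITGB3*, the β3 integrin subunit, had 7.30, 7.62 and 5.61 CPM in baseline controls, 4.27, 4.23 and 3.55 CPM in viscous controls and 4.71, 5.33 and 5.14 CPM in knockdown cells. It remained below baseline controls, at -0.46 (SE 0.12, adjusted p = 0.00483 by edgeR). Of 61 tested matrix and adhesion genes, 19 were lower and 3 higher in viscous than in baseline controls, whereas 10 were lower and 18 higher in viscous controls than in knockdown cells. Knockdown cells had 26 lower and 10 higher than baseline controls. The rule was met by 3 of the 54 with a sufficient level, against 1.15% of all such genes.

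*KRT7*, a keratin of simple epithelia, had 601, 589 and 533 CPM in baseline controls, 467, 463 and 423 CPM in viscous controls and 539, 649 and 683 CPM in knockdown cells. Its log2 fold change over baseline controls was 0.09 (95% interval -0.07 to 0.25, edgeR adjusted p = 0.365). In a list of epithelial, mesenchymal and keratin genes, 1 of the 26 with a sufficient level, *KRT7*, met the rule, against 1.15% of all such genes. Of the 30 genes of this list that were tested, 17 were lower and 1 higher in viscous than in baseline controls. In knockdown cells against baseline controls, 17 were lower and 2 higher. The annexin pair *ANXA8* and *ANXA8L1*, calcium-dependent membrane binders, are near-identical copies on chromosome 10 between which reads can be split. Summed, they gave 20.3 ± 3.25 CPM (SD, n = 3) in baseline controls, 11.3 ± 1.31 CPM (SD, n = 3) in viscous controls and 18.5 ± 2.12 CPM (SD, n = 3) in knockdown cells, and the sum still met the rule.

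*GPRC5B*, an orphan G-protein-coupled receptor, had 4.97, 6.06 and 4.03 CPM in baseline controls, 3.84, 3.71 and 3.27 CPM in viscous controls and 7.08, 9.14 and 9.82 CPM in knockdown cells. All knockdown replicates lay above all other samples, with a log2 fold change of 0.77 (SE 0.14, adjusted p = 0.000394 by edgeR). *SHC2*, an adaptor of receptor tyrosine kinases, had 1.21, 0.960 and 1.101 CPM in baseline controls, 0.785, 0.472 and 0.426 CPM in viscous controls and 1.84, 1.86 and 1.81 CPM in knockdown cells. Its log2 fold change was 0.71 (SE 0.19, adjusted p = 0.00785 by edgeR). *INHBA*, which encodes the β-A subunit of activins, had 2.23, 2.52 and 1.94 CPM in baseline controls, 1.91, 1.51 and 1.63 CPM in viscous controls and 2.93, 3.61 and 3.20 CPM in knockdown cells, a log2 fold change of 0.52 (SE 0.14, adjusted p = 0.00598 by edgeR). Other genes higher in knockdown cells were *PCDH1* (a protocadherin, 0.59), *PALM* (a membrane-bound phosphoprotein, 0.58), *MSLN* (mesothelin, a surface antigen of carcinomas, 0.57) and *GABRE* (a GABA-A receptor subunit, 0.41), given as log2 fold changes over baseline controls. The *GABRE* call was lost in DESeq2, without replicate 2 or 3 of baseline controls and without replicate 2 of knockdown cells, its value running from 0.31 to 0.64. *EPHB6*, a kinase-dead ephrin receptor, dipped to 0.876, 0.801 and 0.328 CPM in viscous controls and reached 1.46, 1.93 and 1.43 CPM in knockdown cells, yet did not pass against the 1.12, 1.13 and 1.03 CPM of baseline controls (0.53, 95% interval -0.01 to 1.06). *ROBO3*, a receptor of axon guidance, and *ASIC1*, a proton-gated sodium channel, did not pass either, at 0.01 (95% interval -0.14 to 0.15) and -0.12 (-0.31 to 0.08). Over the whole lists, more genes were lower than higher in knockdown cells against baseline controls, with 18 lower and 5 higher of 32 tested TGF-β and BMP genes, 28 lower and 3 higher of 46 axon guidance genes, and 22 lower and 14 higher of 56 ion channels and transporters. In viscous against baseline controls the counts were 8 lower and 1 higher, 17 lower and 1 higher, and 17 lower and 7 higher in the same order. The rule was met by 1 of 29, 2 of 41 and 1 of 44 genes with a sufficient level, against 1.15% of all such genes.

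The other 10 called genes are given as log2 fold changes over baseline controls. Lower in knockdown cells were *MRNIP*, a regulator of DNA repair (-0.73), *TTLL3*, a tubulin glycylase (-0.51), *RRAD*, a small GTPase that restrains calcium channels (-0.45), *MROH6* (-0.39), *PI16* (-0.38), *KLHL15*, an adaptor of a ubiquitin ligase (-0.35), and the long RNA *ADIRF-AS1* (-0.33). Higher were *C17orf97* (0.51), the zinc finger gene *ZNF334* (0.34) and *TMEM41B*, a lipid scramblase of the endoplasmic reticulum (0.17). Of these, 5 lost their call under some settings. *MROH6* lost it without replicate 1 of baseline controls or replicate 3 of knockdown cells, where it came to as little as -0.24, and *PI16* without replicate 2 of baseline controls or replicate 1 of knockdown cells. *ADIRF-AS1* lost it without replicate 1 of baseline controls and without replicate 1 or 3 of knockdown cells, and *C17orf97* without replicate 3 of baseline controls or replicate 1 of knockdown cells. *TMEM41B* lost it with upper quartile scaling, without replicate 3 of baseline controls and without replicate 1 or 2 of knockdown cells.

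*TRBC2* encodes a constant region of the T cell receptor β chain and showed the largest rise. It had 2.76, 2.68 and 2.14 CPM in baseline controls, 1.74, 1.93 and 1.48 CPM in viscous controls and 7.11, 7.31 and 7.94 CPM in knockdown cells. Every knockdown replicate lay far above the others, and the log2 fold change over baseline controls was 1.54 (SE 0.12, adjusted p = 1.47e-07 by edgeR). Its near-identical copy *TRBC1* had 1.102, 1.71 and 1.65 CPM in knockdown cells and 0.427 to 0.653 CPM in the 6 SC samples, and reads of the 2 copies may be split. Of the defining leukocyte markers, *PTPRC* stayed at or below 0.175 CPM and *CD3E* at or below 0.0665 CPM in every sample. *CD14*, at 3.08 to 6.38 CPM, was lowest on average in knockdown cells (3.51 ± 0.464 CPM, SD, n = 3). In a list of leukocyte-type genes, 1 of the 30 with a sufficient level, *TRBC2*, met the rule, against 1.15% of all such genes. Of the 40 genes of that list that were tested, 19 were lower and 8 higher in knockdown cells than in baseline controls (median log2 fold change -0.28).

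Long non-coding RNAs accounted for 20 of the 147 genes with a GENCODE entry (13.6%), against 5.23% of the genes with a sufficient level. *NEAT1*, the scaffold of nuclear paraspeckles, had 157, 115 and 87.9 CPM in baseline controls, 63.8, 61.2 and 49.9 CPM in viscous controls and 97.7, 87.3 and 75.5 CPM in knockdown cells. *MALAT1*, which sits in nuclear speckles and lies 52100 bases downstream on chromosome 11, had 129, 84.9 and 71.9 CPM in baseline controls, 63.3, 54.2 and 44.8 CPM in viscous controls and 74.2, 66.6 and 63.6 CPM in knockdown cells. Baseline controls varied the most in both, and the rule was met by *MALAT1* with a gap of only 1.00 times between the nearest replicates. Within each group, both genes were highest in replicate 1 and lowest in replicate 3. Their log2 fold changes in knockdown cells over baseline controls were -0.49 (SE 0.15, adjusted p = 0.0150 by edgeR) and -0.51 (SE 0.16, adjusted p = 0.0162 by edgeR). Both calls were lost in DESeq2, where the log2 fold changes stayed at -0.49 and -0.50. They were also lost without replicate 3 of knockdown cells and without replicate 1 of baseline controls, the latter leaving -0.24 for *NEAT1* and -0.22 for *MALAT1*. With the replicate number as a block, both were called at -0.47 (adjusted p = 0.000648 for *NEAT1* and 0.00135 for *MALAT1* by edgeR). *MIR23AHG* had 18.5, 16.4 and 15.1 CPM in baseline controls, 4.69, 5.37 and 4.75 CPM in viscous controls and 7.79, 6.63 and 7.15 CPM in knockdown cells. Knockdown cells did not overlap baseline controls and covered 19.2% of the distance, and the log2 fold change was -1.24 (SE 0.09, adjusted p = 7.95e-08 by edgeR). The gene *ZSWIM4*, on the opposite strand, overlaps 2310 of its exon bases. *SNHG17*, a host of small nucleolar RNAs, had 27.7, 24.6 and 27.5 CPM in baseline controls, 22.3, 20.7 and 21.9 CPM in viscous controls and 27.9, 28.6 and 25.4 CPM in knockdown cells. Knockdown cells and baseline controls lay close together, with a log2 fold change of 0.01 (95% interval -0.12 to 0.14). Of 30 tested nuclear-retained and host-gene RNAs, 14 were lower and 3 higher in viscous than in baseline controls, and 9 were lower and 4 higher in viscous controls than in knockdown cells. Knockdown cells had 15 lower and 7 higher than baseline controls. The rule was met by 4 of the 29 with a sufficient level, against 1.15% of all such genes.

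The deepest dip by the rule did not hold once its copy was counted. *U2AF1* encodes the small subunit of the splicing factor that recognises the 3′ splice site. It had 11.2, 1.60 and 1.43 CPM in baseline controls, 1.28, 1.13 and 1.31 CPM in viscous controls and 1.402, 6.32 and 1.64 CPM in knockdown cells. Replicate 1 of baseline controls and replicate 2 of knockdown cells carried the ratios, while the other 7 samples lay between 1.13 and 1.64 CPM. A near-identical copy elsewhere on chromosome 21, *U2AF1L5*, varied from 2.29 to 35.2 CPM and had its highest mean in viscous controls. The 2 copies together had 11.8 ± 6.24 CPM (SD, n = 3) in baseline controls, 25.2 ± 10.9 CPM (SD, n = 3) in viscous controls and 7.92 ± 3.10 CPM (SD, n = 3) in knockdown cells. This sum did not meet the rule, and its mean was highest, not lowest, in viscous controls. Its replicates overlapped, at 36.5, 24.4 and 14.8 CPM in viscous controls and 13.5, 4.83 and 16.9 CPM in baseline controls. How reads that fit both copies were counted is not given in the sources used here, so the level of the pair is uncertain. Without *U2AF1* the count was 147, which still holds *ANXA8* and *ANXA8L1* as 2 genes. The other splicing gene, the RNA helicase *DDX39B*, had 72.3, 60.5 and 66.8 CPM in baseline controls, 58.2, 54.5 and 47.7 CPM in viscous controls and 71.6, 73.6 and 69.1 CPM in knockdown cells, though it shares 2157 exon bases with the readthrough *ATP6V1G2-DDX39B* on its own strand. Of 50 tested splicing and RNA processing genes, 8 were lower and 7 higher in viscous than in baseline controls, and 10 were lower and 2 higher in viscous controls than in knockdown cells. Knockdown cells had 21 higher and 8 lower than baseline controls. All 50 had a sufficient level, and 2 met the rule, *U2AF1* only before its copy was added, against 1.15% of all such genes.

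**Figure D4:**
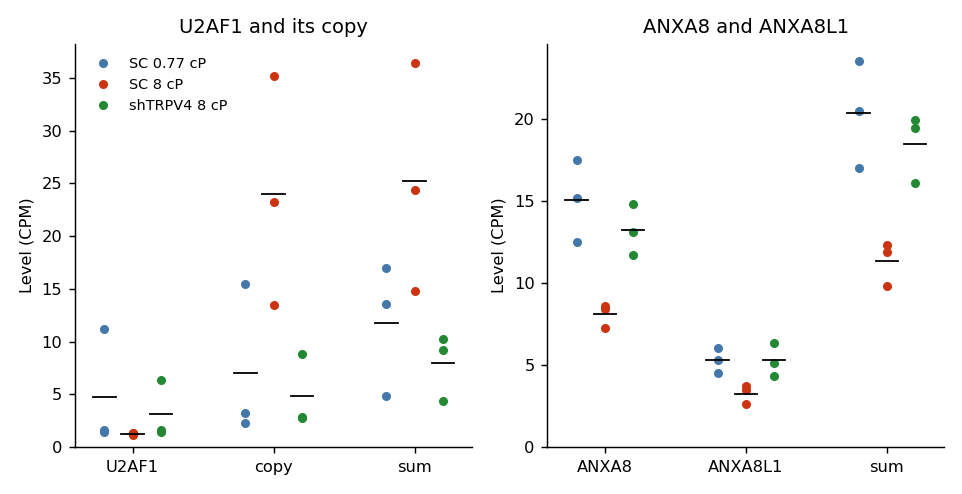
Levels in CPM (y axes start at 0) of *U2AF1*, its copy and their sum (left) and of *ANXA8*, *ANXA8L1* and their sum (right), with points for the replicates of the 3 groups and bars for group means. The sum of the *U2AF1* copies has its highest mean in viscous controls (25.2 CPM), with replicates that overlap those of baseline controls. The summed annexins are lowest in viscous controls (mean 11.3 CPM).

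Some features that the rule did not use differed, as a description, between the 148 genes and the rest. Their canonical transcripts had a median GC content of 56.1%, against 48.1% for the genes with a sufficient level. Of each 100 genes with a sufficient level, 0.467 met the rule in the lowest of 5 equal bins of GC content and 2.02 in the highest. Genes with viscous controls on top ran the other way, with 10 in the lowest bin and 0 in the highest. Across these bins the median log2 fold change ran from 0.06 to -0.07 for viscous against baseline controls, from 0.03 to -0.08 for knockdown cells against baseline controls, and from 0.02 to 0.01 for viscous controls against knockdown cells. The mean GC content of the counted transcripts, weighted by counts, was 49.5% to 49.6% in baseline controls, 49.3% to 49.4% in viscous controls and 49.1% to 49.3% in knockdown cells, so that the mean of viscous controls lay between the others. After centring the levels within 10 bins of GC content, 126 genes met the rule, of which 119 were among the 148. Whether GC content of the libraries plays a part in the remaining pattern was not tested.

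**Figure D5:**
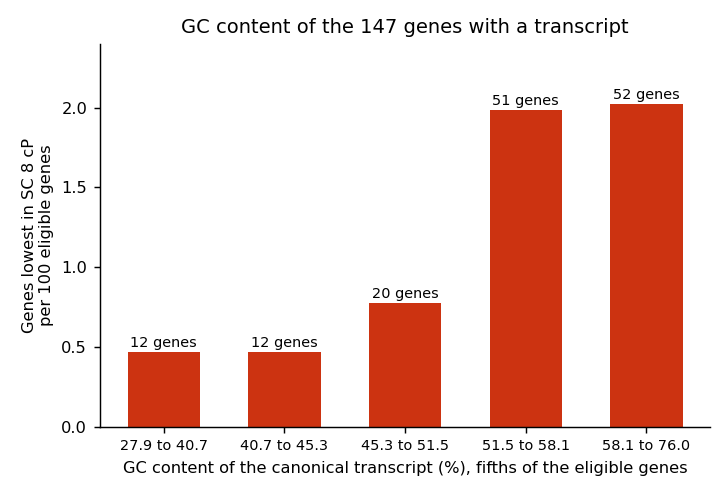
Genes that met the rule per 100 genes with a sufficient level (y axis from 0), by 5 equal bins of the GC content of the canonical transcript (x axis, %), with the number of genes above each bar. The 2 bins above 51.5% GC hold 51 and 52 of the 147 genes with a transcript, the lowest 2 hold 12 each.

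Canonical transcripts were a little shorter, at a median of 2729 against 3189 bases. The genes were also expressed less, at a median of 4.56 against 30.3 CPM, though the rule itself used these levels. Neither the features given here nor the share of long non-coding RNAs was compared at matched levels. Exon bases were shared with another gene on the same strand in 44 of 147 genes (29.9%, against 17.8%), and 6 were annotated as pseudogenes (4.08%, against 4.19%). Counts of such genes are uncertain, since reads may be assigned to either partner. Genes that met the rule lay near one another in 19 cases (12.9% within 100000 bases of another, where 4.27% of the genes with a sufficient level lay as near to one of the 148). The runs were *APOE*, *APOC1* and *RELB* on chromosome 19, *FBXL8*, *HSF4* and *SLC9A5* on chromosome 16, and *SPEG*, *TMEM198* and *SLC4A3* on chromosome 2, along with the pairs *NEAT1* and *MALAT1*, *ANXA8* and *AGAP9*, *ZFHX2* and *AP1G2*, *CCDC78* and *MSLN*, and *TRBC2* and *EPHB6*. Neighbours did not always share a direction in knockdown cells, *APOE* being below and *RELB* above baseline controls. Chromosomes 4, 13 and 18 held none of them, among 479, 220 and 184 genes with a sufficient level. Over all such genes, 1.15% met the rule. The Y chromosome, with 2 such genes, and the mitochondrial genome, with 17, held none either.

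Promoters of 300 bases could be matched for 96 of the genes and for 9941 of those with a sufficient level. The NF-κB letters given above, searched on both strands like all others here, stood in 5 of the 96 (5.21%, against 2.20%), those of *IL6*, *TNFAIP3*, *COL7A1*, *SLC9A5* and *TPM2*. The TATA box TATAAA stood in 12.5% against 5.201%, and the AP-1 letters TGANTCA in 8.33% against 4.45%. The NF-Y letters CCAAT stood in 17.7% against 36.7%, and TEAD letters CATTCC in 10.4% against 10.7%. The cyclic AMP response element TGACGTCA stood in 2.08% against 3.39%. None of these strings of letters contains another. Of all 27305 promoters in the table, 1.92% held the NF-κB letters, 11.95% the TATA box, 7.76% the AP-1 letters, 35.7% CCAAT, 14.05% the TEAD letters and 1.98% the cyclic AMP element. Further strings were searched, not all of which are given here. Among them, GCGTG stood in 35.4% against 51.4%, GGGCGG in 63.5% against 71.5% and TGACNNNGC in 9.4% against 15.3%. The string GCGTGGGCG, which holds GCGTG, stood in 3.1% against 1.36%.

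At the edge of the rule, *KRT34* (smaller ratio 1.2002) and *SNHG18* (1.2009) were just inside, and *NREP* (1.195) and *ST3GAL6-AS1* (1.194) were just outside. *KRT34*, a hair keratin, had 0.745, 0.903 and 0.886 CPM in viscous controls and 1.07, 1.06 and 0.909 CPM in knockdown cells, while *NREP* had 4.99, 4.50 and 4.62 CPM and 5.61, 5.49 and 5.75 CPM. The gap between the highest replicate of viscous controls and the lowest of the others had a median of 1.09 times and reached 1.2 times in 13 of the 148 genes. Leaving out single samples gave 127 to 238 genes, the highest without replicate 1 of viscous controls, and 78 of the 148 met the rule in all 9 of these settings. With TMM scaling 127 of the 148 met it, and an edgeR adjusted p below 0.05 in both contrasts in place of the rule gave 140 genes, of which 84 were among the 148.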

How the data were processed

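RNA from 9 samples in 3 groups of 3 was sequenced by the authors as strand-specific poly(A) libraries. Per the labels and methods, the authors mapped reads to GRCh38.p13 with HISAT2 2.2.1 and counted them per gene with HTSeq 0.13.5, and they deposited raw counts, not normalized, for 60664 genes, of which 42028 rows had a symbol in the tables used here. Groups and replicate numbers come from the sample titles. The strand option of the counting is not given in the sources used here.

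CPM were computed from the deposited counts and the total of each sample (64571681 to 103518036). For tests, counts were scaled by TMM (factors 0.992 to 1.02) and filtered with filterByExpr, and edgeR 4.0.16 (R 4.3.3) fitted quasi-likelihood models to all 9 samples, each group having its own coefficient. It tested 18264 genes with Benjamini-Hochberg adjustment, at a threshold of 0.05, and the common biological coefficient of variation was 0.0633. All 148 genes passed the filter. The fit was tested on simulated counts first. DESeq2 1.42.0 served as an alternative. Annotation came from GENCODE release 44 and bedtools 2.31.1, and sequences from RefSeq (GRCh38.p14). The precision of a value is that of its replicates.

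The genes and the gene lists were chosen with earlier results of these data known. Genes were named by rule: the 10 deepest dips, the 8 highest levels, the 4 largest rises and falls in the tested comparison, 2 genes on either side of the limit, and up to 6 genes in each list. Alternatives were other scalings, folds, level limits and filters, the replicate number as a block, the 6 samples of a comparison alone and leaving out each sample. Centring by GC content and summing copies were added after seeing the data.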

Additional observations from a re-analysis of the deposited data

How the results depend on the processing

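Of the settings of the rule itself, a fold of 1.1 gave 281 genes, a fold of 1.5 gave 19, a mean of at least 5 CPM gave 71, and allowing replicates to overlap gave 245, against 148 in the report. A mean of 0.5 CPM gave 189, DESeq2 size factors 128, and leaving out each sample 127 to 238. Between knockdown cells and baseline controls, 29 to 36 of the 148 genes were called by edgeR when each sample was left out, with 11 to 18 higher and 13 to 25 lower. The count of 13 lower came without replicate 1 of baseline controls. Over all genes this comparison gave 6318 to 7705 calls when each sample was left out. For viscous against baseline controls the range was 1409 to 4349 against 3518 with all samples, the lowest without replicate 1 of baseline controls, 1418 without replicate 3 of viscous controls and 1927 without replicate 2 of baseline controls. For viscous controls against knockdown cells it was 2179 to 3836 against 3649, with 2179 without replicate 2 and 2361 without replicate 1 of viscous controls.

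Of the 35 genes called in the tested comparison, 22 kept their call under all 15 alternatives, 13 lost it under at least 1, and none changed sign. Over all genes tested, same-numbered samples did not deviate together (correlations of -0.0546 to 0.0904), so the replicate numbers were not taken as pairs. In *NEAT1* and *MALAT1*, though, levels fell from replicate 1 to replicate 3 in every group. With the replicate number as a block, 37 of the 148 genes were called, including all 35, and 7731, 3475 and 3607 genes over all in the 3 comparisons. Depth limits the low genes most, the lowest count in a sample of viscous controls being 30.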
